A study of Mus musculus with 6 samples.

Results

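Distal sites of histone H3 lysine 4 trimethylation (H3K4me3) that were found in a mouse pro-T cell line and not in a mouse pre-B cell line are described here. Peaks of the lists of Scid.adh.2C2 (pro-T) and of the pre-B line were merged where they overlapped by at least 1 bp. The members were chosen by peak presence: a merged region had to hold Scid.adh.2C2 peaks, hold no pre-B peak, and stay clear of the 2500 bp on either side of every GENCODE transcription start site (TSS). The 15513 Scid.adh.2C2 peaks and 19604 pre-B peaks gave 22625 merged regions, of which 2322 met the rule (10.3% of all merged regions, and 28.8% of the 8053 regions that were distal to the TSSs). Each of the 2322 regions held 1 peak. The other distal regions were 4452 with pre-B peaks only and 1279 shared by both lines. This order depended on list length. With the pre-B list shortened to the length of the Scid.adh.2C2 list, 2623 distal regions had Scid.adh.2C2 peaks only and 2194 had pre-B peaks only. Since the peak calls selected the members, their fold and width are given as a description, and no test was made between classes because each line had 1 combined list.

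H3K4me3 was profiled by ChIP-seq with a Millipore antibody, with 2 ChIP libraries and 1 input library per line. Scid.adh.2C2 cells, cloned from the Scid.adh thymoma line of a CB17-Prkdc scid mouse, have the features of DN3 thymocytes. The pre-B line consists of B cell progenitors transformed with Abelson virus. Both are single untreated tumor lines, so lineage, transformation and genetic background differ together between them and cannot be told apart. At the promoters, within 2500 bp of a protein-coding TSS, peaks were present for 10 of 10 pro-T marker genes in Scid.adh.2C2, with 41.5-fold enrichment at Cd3e, 39.9-fold at Gata3 and 33.2-fold at Bcl11b. Of 8 pre-B marker genes, 8 had a promoter peak in the pre-B line and 1 in Scid.adh.2C2, Vpreb1 (29.9-fold in Scid.adh.2C2 and 21.2-fold in the pre-B line). Of the pro-T markers, Cd3d, Tcf7, Lck and Notch1 had a promoter peak in the pre-B line as well. None of 4 myeloid marker genes had a promoter peak in either list, whereas Klf1 of the 3 erythroid markers had one in both and Epor in Scid.adh.2C2.

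H3K4me3 is laid down mainly at the start sites of transcribed genes, and at lower levels at active enhancers and at start sites that gene annotations do not hold. Early T cell development depends on Notch signals and on the transcription factors TCF1 (Tcf7), GATA3 and BCL11B, which act with RUNX, ETS and E proteins. Several genes of this network, among them Gata3 and Bcl11b, are controlled in thymocytes by enhancers that lie far downstream of the gene.

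To show what such regions look like, 6 windows of 300 bp centred on the summit are printed on the plus strand of GRCm38. They were picked after the values were known: the member of highest fold beside Gata3, Bcl11b and Smoc1, and the member with most kinds of motif beside Rora, Ikzf2 and Akap6. Capitals mark matches on either strand to the motifs searched. For TCF/LEF factors the motif was CTTTGAT, and GATA factors were searched with AGATAAG. The RUNX motif was TGTGGTT and the motif of ETS factors AGGAAGT. E proteins were searched with CAGCTG, and EBF, a B-lineage factor, with CCCNNGGG. None of the windows overlaps an annotated GENCODE exon. The Gata3 window (chr2:9681307-9681606) is intergenic, and the Bcl11b window (chr12:107768961-107769260) lies in a gene that is not protein-coding. The Smoc1 window (chr12:81018712-81019011) is intergenic. The windows of Rora (chr9:69335967-69336266), Ikzf2 (chr1:69657115-69657414) and Akap6 (chr12:52829102-52829401) lie in introns of these genes.
Gata3: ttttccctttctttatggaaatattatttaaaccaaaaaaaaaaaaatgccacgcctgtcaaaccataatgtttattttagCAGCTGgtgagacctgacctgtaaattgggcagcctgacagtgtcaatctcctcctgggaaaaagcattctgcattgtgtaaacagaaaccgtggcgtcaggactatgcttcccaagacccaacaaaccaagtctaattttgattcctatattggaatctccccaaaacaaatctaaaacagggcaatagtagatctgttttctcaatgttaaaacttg
Bcl11b: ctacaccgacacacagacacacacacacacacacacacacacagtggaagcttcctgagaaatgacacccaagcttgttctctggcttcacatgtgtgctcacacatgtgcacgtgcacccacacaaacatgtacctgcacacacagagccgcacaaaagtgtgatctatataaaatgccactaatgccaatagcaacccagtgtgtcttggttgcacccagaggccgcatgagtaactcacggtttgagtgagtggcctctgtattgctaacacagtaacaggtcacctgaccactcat
Smoc1: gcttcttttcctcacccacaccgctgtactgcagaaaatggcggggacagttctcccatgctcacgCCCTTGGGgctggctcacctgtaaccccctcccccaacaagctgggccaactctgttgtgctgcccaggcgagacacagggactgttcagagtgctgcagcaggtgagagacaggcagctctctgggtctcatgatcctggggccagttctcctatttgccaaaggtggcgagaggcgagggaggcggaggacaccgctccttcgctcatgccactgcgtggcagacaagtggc
Rora: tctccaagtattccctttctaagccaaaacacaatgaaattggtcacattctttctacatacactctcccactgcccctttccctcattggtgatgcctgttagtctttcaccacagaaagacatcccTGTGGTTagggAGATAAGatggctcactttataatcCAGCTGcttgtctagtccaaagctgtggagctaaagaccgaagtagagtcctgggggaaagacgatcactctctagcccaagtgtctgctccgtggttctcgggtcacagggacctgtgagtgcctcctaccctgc
Ikzf2: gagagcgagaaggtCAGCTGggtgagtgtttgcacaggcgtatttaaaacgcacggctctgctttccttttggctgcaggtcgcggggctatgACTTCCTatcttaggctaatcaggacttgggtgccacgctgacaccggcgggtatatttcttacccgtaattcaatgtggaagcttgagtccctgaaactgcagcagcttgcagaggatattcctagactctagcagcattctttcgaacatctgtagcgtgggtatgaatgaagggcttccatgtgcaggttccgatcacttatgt
Akap6: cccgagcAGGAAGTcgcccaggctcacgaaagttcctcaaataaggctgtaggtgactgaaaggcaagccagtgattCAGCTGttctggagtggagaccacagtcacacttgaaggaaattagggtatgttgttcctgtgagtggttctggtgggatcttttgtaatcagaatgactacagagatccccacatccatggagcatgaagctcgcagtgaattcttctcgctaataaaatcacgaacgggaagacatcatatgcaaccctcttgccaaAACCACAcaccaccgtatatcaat

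The Rora window, in an 8.27-fold region of 321 bp, holds matches for RUNX, GATA and E proteins, and the Akap6 window, in a 15.7-fold region, holds matches for ETS, E proteins and RUNX. The Ikzf2 window holds an ETS and an E protein match, and the Gata3 window an E protein match. The Smoc1 window has a match to the EBF motif alone, and the Bcl11b window, of which 48.3% is repeat sequence, has no match. A match is a run of letters and was not tested for binding.

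Most members were narrow and of moderate enrichment. The median width was 746 bp (quartiles 476 and 1159 bp, range 190 to 11569 bp) and the median fold enrichment over the local background was 8.27 (quartiles 6.76 and 10.98, range 2.44 to 37.5). Only 126 members (5.43%) spanned 2000 bp or more, 634 (27.3%) were under 500 bp, 755 (32.5%) had at least 10-fold enrichment and 91 (3.92%) at least 20-fold. Distal pre-B only regions measured 1004 bp and 9.002-fold at the median, distal shared regions 1355 bp and 14.4-fold, and promoter regions with Scid.adh.2C2 peaks only 1066 bp and 11.5-fold. Each shared region is a union of peaks of both lists, which widens it by construction. Its fold is that of its highest peak in either list, which raises it by construction too. No peaks were merged in the other classes named here. Fold and width rose together across the members (Spearman's rho 0.49, n = 2322 regions of 1 list). Ordered by fold in 4 bins of about equal size, from the lowest to the highest, the median width went from 531 to 1208 bp and the median CpG observed over expected ratio from 0.232 to 0.333, whereas the share with a neighbouring member within 10 kb went from 35.4% to 25.7%.

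**Figure D1:**
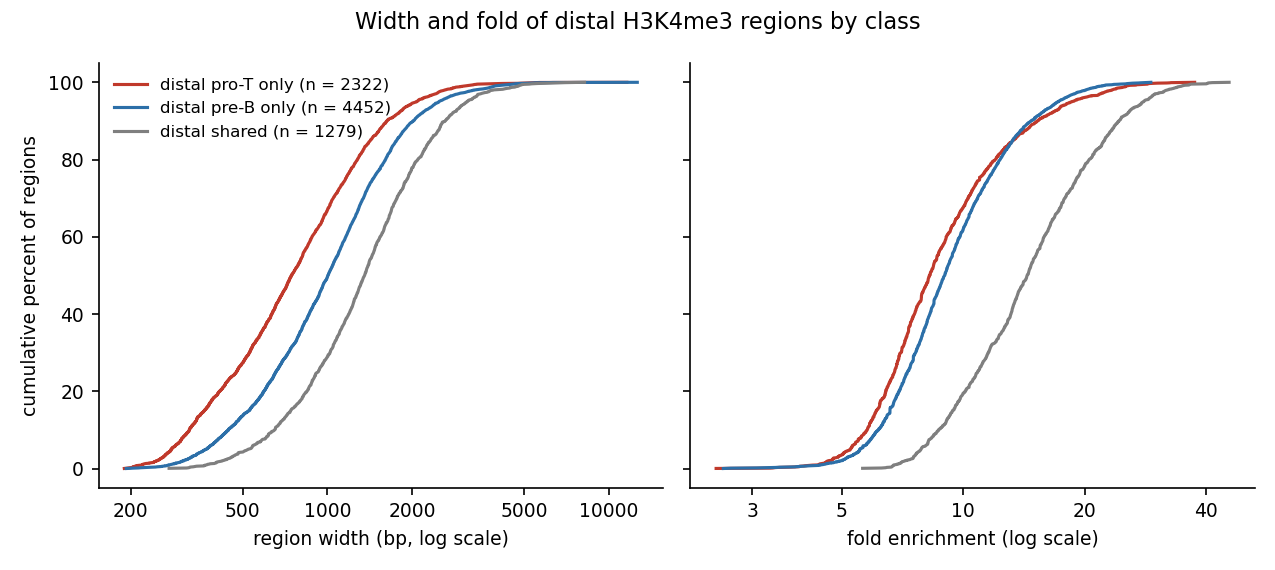
Cumulative percent of distal regions against region width in bp and against fold enrichment, both on log axes, for pro-T only (n = 2322), pre-B only (n = 4452) and shared regions (n = 1279). Each shared region is a union of peaks of both lists, which widens it by construction. The pro-T only curve lies left of the other two for width, with medians of 746, 1004 and 1355 bp, and it crosses the pre-B only curve above 10-fold, where 3.92% of pro-T only and 2.13% of pre-B only regions reach 20-fold.

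The members closest to a TSS were 2502 bp from one beside Uvrag (13.2-fold), 2508 bp beside Csk (8.37-fold) and 2509 bp beside Abhd5 (18.4-fold). Just outside, regions with Scid.adh.2C2 peaks 2500 bp from a TSS beside Plxnc1 (10.9-fold) and 2495 bp beside Mllt3 (5.25-fold) counted as promoter regions. Members among the closest to a pre-B peak were 52 bp from it beside Zfp36l2 (10.2-fold) and 78 bp beside Maml3 (7.88-fold), and the distal shared regions of least overlap had 64 bp in common beside Irf2bpl and 91 bp beside Prkce. Of the 2322 members, 105 (4.52%) lay within 1000 bp of a pre-B peak, and the median gap to one was 39.6 kb.

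The member of highest fold, 37.5, covered chr14:51062567-51066153 and lay 6.01 kb upstream of Rnase12, a ribonuclease A family gene. Its summit window had a CpG observed over expected ratio of 0.812, and a TSS of the RefSeq annotation, which the rule did not use, lay inside the region. A 34.8-fold member at chr12:106574172-106585740 was also the widest, with 11569 bp. Its nearest protein-coding TSS was that of Vrk1, a nuclear kinase gene, 549 kb away, and 86.3% of its summit window was repeat sequence. The third was a 32.7-fold region near Zfp119b, again with a RefSeq TSS inside. Regions nearest to Smoc1 (32.6-fold, 3716 bp, 7.95 kb away), Ppara (32.0-fold, 67.4 kb) and Ighmbp2 (30.3-fold, 184 kb) followed. Then came those nearest to Slc44a5 (29.8-fold, 120 kb) and Dynlrb2 (29.1-fold, 84.2 kb, with the summit in an exon of Cdyl2). Nsd1, Mcu, Tank, Zfp148, Nav2, Hist2h2bb and Gm11639 were nearest to the remaining 7 of the top 15, which had 27.4-fold to 28.8-fold enrichment. The summit of the Gm11639 region lay in an intron of Itgb3. Of these 15 regions, 4 held a RefSeq TSS (Rnase12, Zfp119b, Slc44a5 and Nav2), and none of the 15 genes was among the T-lineage genes defined below, whereas Rnase12 was among the B-lineage genes.

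The RefSeq TSSs split the members further. In all, 234 members (10.1%) lay within 2500 bp of a RefSeq TSS, of 9.73-fold and 909 bp at the median, against 8.19-fold and 732 bp for the other 2088. The share was 16.03% in the highest bin by fold and 8.56% in the lowest. It was 9.64% for distal pre-B only and 20.2% for distal shared regions.

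Among the 10 widest members, the one after the Vrk1 region spanned 5670 bp at chr3:101295655-101301324, 8.36 kb upstream of Cd2, which encodes a T cell adhesion receptor. It had 22.01-fold enrichment, held a RefSeq TSS and lay 301177 bp from the nearest pre-B peak. The next in width was a member of 5344 bp in an intron of Ptpn14 (18.03-fold). Members of 5249 bp (24.9-fold), 71.7 kb from Zfp217, and 5092 bp (26.0-fold), 52.8 kb from Serbp1, followed. The others were nearest to Dynlrb2 (4889 bp, 84.2 kb away), Btg1 (4728 bp, 107 kb), Akap2 (4157 bp, 8.44 kb), Ptpn13 (4088 bp, 27.3 kb) and Smoc1 (3716 bp, 7.95 kb). Ptpn13 and Ptpn14 both encode protein tyrosine phosphatases.

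With gaps of at most 10 kb, 669 members (28.8%, 95% Wilson interval 27.01 to 30.7%) had another member as neighbour, in 293 groups, and 199 (8.57%) stood in 58 groups of at least 3. The share depended on how peaks were taken: it was 12.97% after merging peaks up to 1000 bp apart, 13.2% with peaks of at least 10-fold and 46.0% with a gap of 50 kb. A further Scid.adh.2C2 peak of any class lay within 1000 bp of 529 members (22.8%). The share with a neighbour of the same class was 35.2% for distal pre-B only regions and 19.5% for shared ones. The order of both line-specific classes turned when the pre-B list was shortened to the length of the Scid.adh.2C2 list: 29.1% of pro-T only and 23.3% of pre-B only regions then had one. The intervals cover counting error alone, and neighbouring regions are not independent.

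The largest group held 6 members over 24009 bp at chr3:79226952-79250960, in introns of Rapgef2, which encodes an exchange factor for the GTPase Rap. Their fold lay between 4.75 and 11.8, and they covered 23.3% of the span, which also held 1 region of another class. Groups of 5 lay in Arhgef10l (7.79 to 11.2 kb from its TSSs), Itgb6, Rora, Gse1 and Atp8b4, beside Mrps22, and in Kcnip1 with Kcnmb1 as the nearest TSS. In the Itgb6 group, which covered 67.0% of 11106 bp inside this integrin gene, enrichment reached 22.2-fold, and in the Mrps22 group 22.4-fold. The 5 members of the Rora group were of even height, from 6.77-fold to 7.25-fold. A group of 4 lay in Nuggc, a GTPase gene, at chr14:65622891-65631656, where members of 18.4-fold to 26.8-fold covered 87.3% of 8766 bp. A group of 4 in Bcas3 ranged from 6.40-fold to 21.98-fold.

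Members lay at a median of 25309 bp from the nearest protein-coding TSS, measured from the summit (quartiles 10078 and 66089 bp). The medians were 17129 bp for distal pre-B only and 17030 bp for distal shared regions. Of the members, 575 (24.8%) were within 10 kb of such a TSS, 403 (17.4%) were beyond 100 kb and 51 (2.196%) beyond 500 kb, and 10.3% of distal pre-B only and 7.43% of distal shared regions lay beyond 100 kb. Summits fell in introns of protein-coding genes for 943 members (40.6%), in their exons for 74 (3.19%), in other annotated genes for 163 (7.02%) and between genes for 1142 (49.2%). The nearest TSS was downstream of the summit for 1171 members (50.4%). Fold was hardly related in rank to this distance (Spearman's rho 0.02, n = 2322 regions of 1 list).

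**Figure D2:**
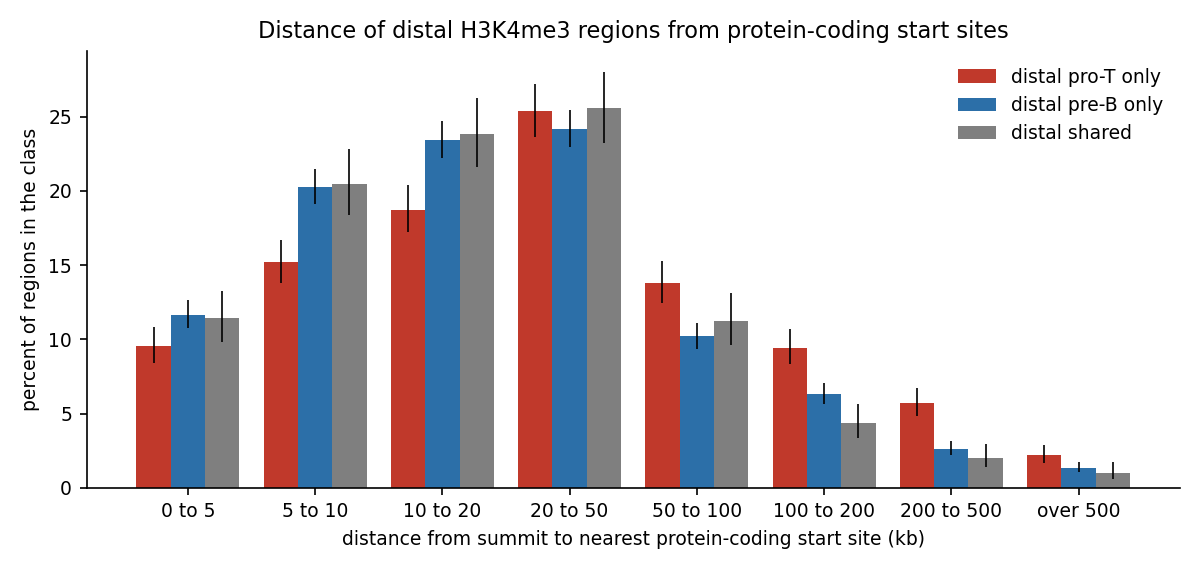
Percent of distal regions of each class by distance in kb from the summit to the nearest protein-coding start site, with 95% Wilson intervals as bars. Pro-T only regions were spread to longer distances, with 17.4% beyond 100 kb against 10.3% of pre-B only and 7.43% of shared regions.

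The members had 1522 different nearest protein-coding genes, 6.94% of 21924. The corresponding counts were 2648 genes (12.1%) for distal pre-B only and 1032 (4.71%) for distal shared regions. One member was nearest to 1087 of the 1522 genes, 175 genes had at least 3 members and 47 at least 5. Proximity on the chromosome was the sole link made between region and gene, and contact between them was not measured.

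Gse1 and Rora headed the list with 13 members each. In Rora, which encodes the nuclear receptor RORα, all 13 lay in introns of the gene over distances up to 161 kb from the nearest of its TSSs, with 6.23-fold to 16.6-fold enrichment, and no distal pre-B only or shared region was nearest to it. The 13 Gse1 members also lay within the gene, with 5.68-fold to 18.4-fold enrichment, beside 2 pre-B only and 2 shared regions. Sdk2, which encodes an adhesion molecule, had 9 members, of 6.39-fold to 18.2-fold. Sall1, a zinc finger factor gene, had 8, up to 595 kb away and up to 26.8-fold. Btg1, an antiproliferative gene, had 8, from 5.15-fold to 17.4-fold, at 15.5 to 338 kb. Rapgef2 and 3110018I06Rik had 8 each. Among the genes with 7 members were Bcl11b, F13a1, Bcor, Rbms1 and Fasl, which encodes the ligand of the death receptor Fas. Sdk2, Sall1, 3110018I06Rik, F13a1 and Fasl had no promoter peak in either line, Rora, Gata3 and Bcl11b had one in Scid.adh.2C2 alone, and Gse1, Btg1, Rapgef2, Bcor and Rbms1 had one in both.

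Transcription factor genes of the T lineage were the list with the highest share of genes beside a member. Of 23 genes in it, 18 (78.3%) were nearest to a member, with 53 members in all. Distal pre-B only regions were nearest to 8 genes (33 regions) and distal shared regions to 8 (14 regions). Of all protein-coding genes, 6.94% were nearest to a member, 12.1% to a distal pre-B only region and 4.71% to a distal shared region. Gata3 had 9 members, all downstream of the gene between 192 and 495 kb from its TSS. The closest of them was the highest (14.5-fold, chr2:9680965-9682518). A pair 279 and 280 kb away, of 8.22-fold and 11.8-fold, was separated by 276 bp and lay within 2500 bp of a RefSeq TSS, and 3 members between 389 and 391 kb had 4.05-fold to 6.87-fold enrichment. The one at 495 kb had 6.04-fold enrichment. No pre-B peak lay within 363987 bp of any of the 9.

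Bcl11b, whose product commits precursors to the T lineage, had 7 members. Of these, 4 lay in its introns, as pairs 7.96 and 9.002 kb and 74.3 and 75.8 kb from the TSS, and 3 lay downstream of the gene. The 4 intronic members were each within 2500 bp of a RefSeq TSS, so that the 3 others alone were distal to both annotations. The highest was a 19.8-fold region of 3261 bp 234 kb from the TSS (chr12:107767414-107770674). The lymphoid factor gene Ikzf1 had 6 members, 3 upstream and 3 intronic, of 3.74-fold to 8.31-fold. Its relatives Ikzf2, with 4 members of 6.89-fold to 9.15-fold, and Ikzf3, with 3 of 5.49-fold to 8.60-fold, had most of theirs in introns. Ets1 had 4 members, including a 19.7-fold intronic region, beside 4 pre-B only regions, and Tcf12, an E protein gene, had 4 between 4.74-fold and 7.95-fold. Tcf7 had 2 upstream members (12.2-fold and 6.22-fold), and Lef1 had 2, 132 and 164 kb upstream (9.34-fold and 14.6-fold). Runx1, Runx3 and Tox had 2 members each, and Runx1 was nearest to 8 and Runx3 to 4 distal pre-B only regions. Single members lay beside Ets2 (12.4-fold), Zeb1 (12.3-fold), Satb1 (11.2-fold), Myb (7.96-fold), Zfpm1 (6.07-fold) and Gfi1 (6.06-fold). Foxp1, Id3, Nfatc1 and Zbtb7b were among the genes with none, and Foxp1 was nearest to 11 distal pre-B only regions.

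**Figure D3:**
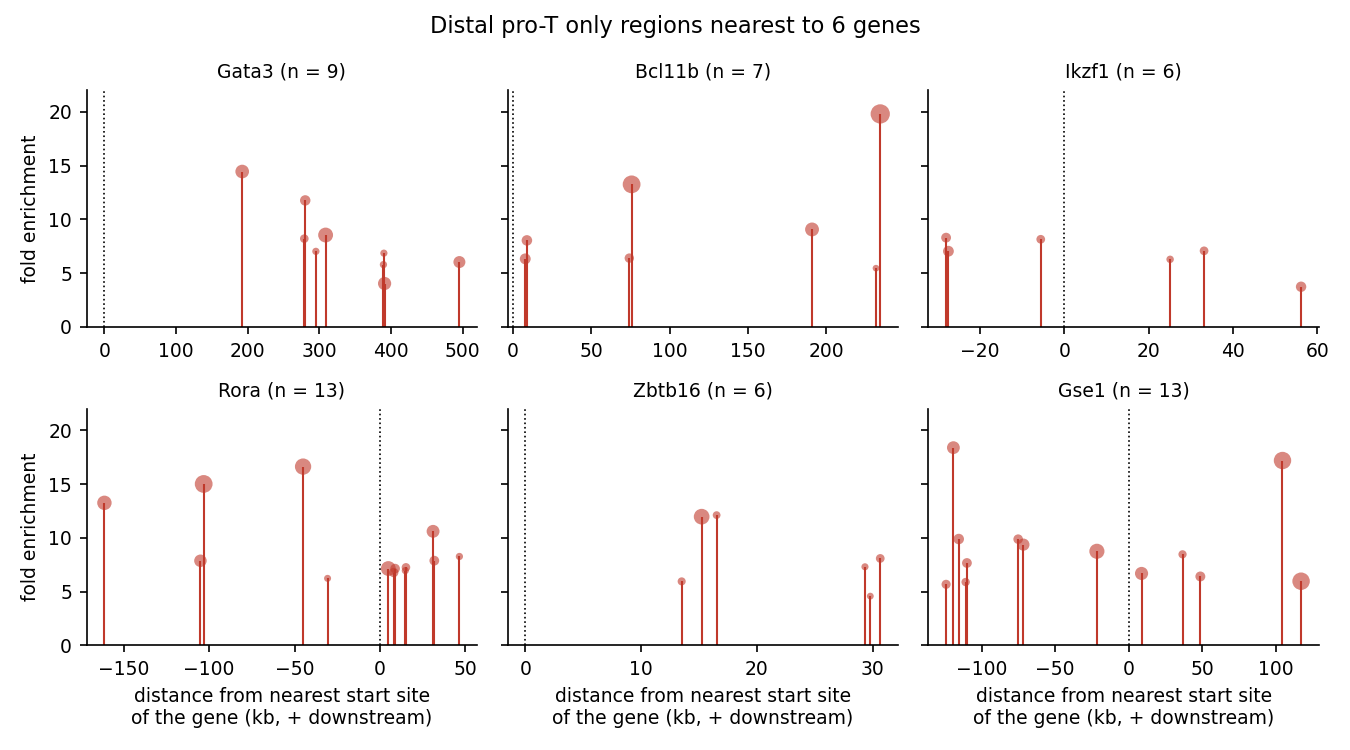
Fold enrichment of each distal pro-T only region nearest to Gata3, Bcl11b, Ikzf1, Rora, Zbtb16 and Gse1 against its distance in kb from the nearest start site of that gene, with downstream distances positive and the area of a point growing with region width. The 9 Gata3 regions all lie between 192 and 495 kb downstream, whereas those of Ikzf1 and Rora lie on both sides of a start site.

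CD3 and T cell receptor signalling genes had members at 8 of 22 genes (19 members), against 7 genes for distal pre-B only regions (12 regions). The shares over all protein-coding genes were 6.94% and 12.1%. Ptprc, which encodes the phosphatase CD45, had 5 members of 4.73-fold to 9.04-fold, 4 of them intronic, beside 1 pre-B only and 4 shared regions. The adaptor gene Lcp2 had 4 of 5.12-fold to 9.02-fold, and Cd247, which encodes the zeta chain of the receptor complex, had 3 of 5.29-fold to 8.76-fold. Themis and Prkcq had 2 each, the former 9.31-fold and 6.93-fold in introns. Single members lay in an intron of the kinase gene Txk (5.18-fold) and 4.32 kb upstream of Ptcra (8.15-fold), the gene of the pre-T cell receptor alpha chain. The CD3 genes Cd3e, Cd3d and Cd3g, and Lck and Zap70, had no member.

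Surface and homing receptors of T cells had members at 10 of 24 genes, 19 in all, and distal pre-B only regions at 6, also 19 in all. Among all protein-coding genes, 6.94% were nearest to a member and 12.1% to a distal pre-B only region. The gut-homing chemokine receptor gene Ccr9 had 3 members in introns, 9.88 to 11.9 kb from its nearest TSS, of 5.34-fold to 5.64-fold. Cxcr4 had 3, of 5.34-fold to 10.8-fold, and the interleukin-7 receptor gene Il7r 3, of 6.82-fold to 7.76-fold. Thy1 had 2 upstream members, of 12.6-fold and 6.85-fold, Cd226 2, of 5.82-fold and 7.01-fold, and S1pr1 2, of 10.3-fold and 11.6-fold. Single members lay beside Il2ra (9.38-fold, in an intron, 4.01 kb from the TSS), Ccr7 (7.76-fold) and Icos (4.59-fold). Of the genes with members, S1pr1 was nearest to 6 distal pre-B only regions, Il2ra to 4, Ccr7 to 3 and Cxcr4 to 2. The others were nearest to none. Distal shared regions were nearest to Cxcr4 (3) and Il2ra (1), and Cxcr4 and S1pr1 had a promoter peak in the pre-B line alone.

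Notch receptors and targets had members at 5 of 12 genes, 12 in all, and distal pre-B only regions at 5 as well, 6 in all. Over all protein-coding genes, the shares were 6.94% and 12.1%. Hey1, a repressor gene of the Notch pathway, had 4 members 51.0 to 99.9 kb upstream, of 5.83-fold to 17.8-fold, and no promoter peak in either line. The highest of them held a RefSeq TSS. Notch1 had 3 of 5.66-fold to 7.77-fold, 3.45 to 9.50 kb from its TSSs. Nrarp, a feedback inhibitor of Notch, had an 18.99-fold member 12.8 kb upstream and a 6.96-fold member next to it. Hes1 had 2 members (6.59-fold and 10.1-fold) and the ligand gene Jag1 had 1 (8.64-fold).

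Among lists of other lineages, natural killer and innate lymphoid genes had members at 6 of 13 genes (19 members), against 5 for distal pre-B only regions (10 regions). Zbtb16, which encodes the innate-like lymphocyte factor PLZF, had 6 intronic members 13.5 to 30.7 kb from its TSS, of 4.58-fold to 12.1-fold, with no promoter peak in either line. Id2, an inhibitor of E proteins, had 5 of 6.59-fold to 9.75-fold, Klrb1c 4 of 5.25-fold to 14.6-fold, Eomes 2, and Tbx21 and Ifng 1 each. Id2 was also nearest to 3 distal pre-B only regions and 1 shared one, and Klrb1c to 2 and 5. Tbx21 was nearest to 2 distal pre-B only regions and Ifng to 1 shared region. B-lineage genes had members at 5 of 26 genes, namely Il7r, which 2 lists share, Cd24a, Foxo1, Irf4 and Pou2af1, against 15 for distal pre-B only regions. Stem and progenitor factors had a member at 1 of 13 genes (Kit, 5.02-fold) against 6, and myeloid and erythroid genes at 1 of 15 (Itgam, 15.01-fold) against 3. The lists were not tested. Of all protein-coding genes, 6.94% were nearest to a member, against 12.1% for distal pre-B only and 4.71% for distal shared regions.

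**Figure D4:**
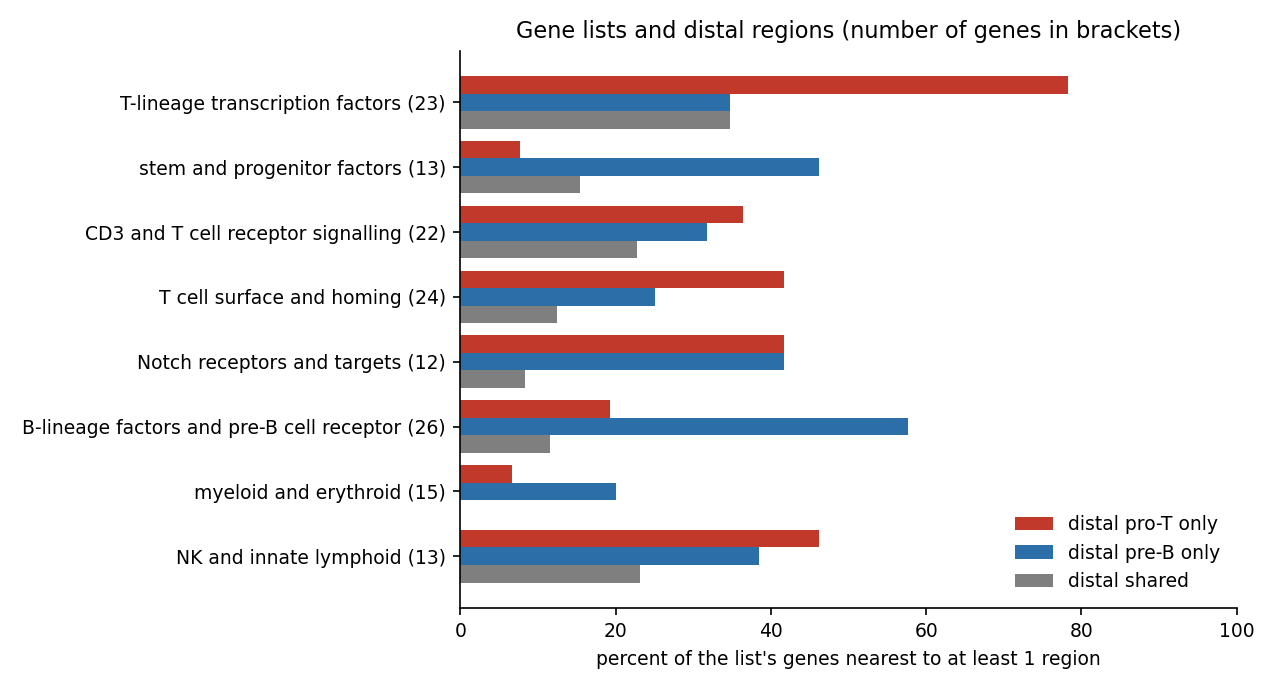
Percent of the genes of each list that were the nearest protein-coding gene of at least 1 distal region, by class of region, with the number of genes in brackets. T-lineage transcription factors reach 78.3% for pro-T only regions and 34.8% for pre-B only regions, while B-lineage genes show 19.2% and 57.7%.

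The study also defined longer sets of T-lineage and B-lineage genes from public expression data of sorted progenitors, independent of these libraries. Of these sets, 212 and 232 entries matched a protein-coding gene. Ikzf3, Lef1, Id3, S1pr1 and Ccr7, named above with T cell genes, belong to the B-lineage set. A T-lineage gene was nearest to 133 members (5.73%, 95% Wilson interval 4.85 to 6.75%), 63 of the 212 genes (29.7%). The share was 1.75% of distal pre-B only regions, with 46 of the genes (21.7%), and 2.03% of distal shared regions, with 21 (9.91%). Of all protein-coding genes, 6.94%, 12.1% and 4.71% were nearest to a region of these classes. When any T-lineage TSS within 100 kb counted, the shares of regions were 7.02% of members, 3.98% of distal pre-B only and 4.69% of distal shared regions. B-lineage genes were nearest to 53 members (2.28%), against 5.59% of distal pre-B only and 2.19% of distal shared regions. By genes these were 38 (16.4%), 96 (41.4%) and 23 (9.91%) of 232. With any B-lineage TSS within 100 kb, the shares of regions were 3.83% of members, 7.97% of distal pre-B only and 5.86% of distal shared regions. The T-lineage share fell with fold, from 7.88% in the lowest bin of members to 4.31% in the highest, and the median fold of the 133 members was 7.60 against 8.27 overall. With peaks of at least 10-fold alone in both lists, the T-lineage share was 3.72% and the B-lineage share 3.40%. That setting gave 941 regions, some of them not members, as weaker pre-B peaks were dropped.

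After Gata3, Rapgef2 and Bcl11b, the T-lineage genes with most members were Egln3, an oxygen sensor gene, with 6 of 6.51-fold to 13.4-fold, Akap6 with 5 of 8.45-fold to 22.8-fold and Atp8b4 with 5 of 3.93-fold to 10.3-fold. Anxa2 had 4 members, and Klf3, Nck2, Arpp21, Prkch, Pmepa1, Ptger4 and Fam169b had 3 each, as had Cd247, Ccr9 and Notch1.

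For 352 members (15.2%), the nearest gene had a promoter peak in Scid.adh.2C2 and not in the pre-B line, a state of 3.28% of all protein-coding genes. For 1106 members (47.6%) it had one in both lines, for 136 (5.86%) in the pre-B line alone and for 728 (31.4%) in neither, against 42.2%, 5.96% and 48.6% of all protein-coding genes. Beside T-lineage genes, 80 of 133 members (60.2%) had a nearest gene with a promoter peak in Scid.adh.2C2 alone. By genes, this was 34 of 63 (54.0%), and no share over the whole T-lineage set is given. Of all distal pre-B only regions, 2.403% had a nearest gene with a promoter peak in Scid.adh.2C2 alone. For 18.1% the nearest gene had one in the pre-B line alone. Promoter peaks came from the same lists that chose the members, so these shares were not tested either.

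The sequence at the summit had few of the features of CpG island promoters. In the 300 bp windows of the members, the median GC share was 47.7%, the median CpG observed over expected ratio 0.273 and the median repeat share 8.67%. Distal pre-B only regions were close to this (47.3%, 0.252 and 9%), distal shared regions had a ratio of 0.359, and promoter regions shared by both lines had 56.7% GC and a ratio of 0.620. A GC share of at least 50% together with a ratio of at least 0.6 was found in 74 members (3.19%), and in 1.46% of distal pre-B only and 10.0% of distal shared regions. At least 50% of the window was repeat sequence in 131 members (5.64%).

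Of the motifs searched, RUNX was found in 235 member windows (10.1%, 95% Wilson interval 8.96 to 11.4%), against 7.77% of distal pre-B only windows, 8.44% of distal shared windows and 5.27% of 32851 RefSeq promoter windows of the same length (GRCm38.p6). TCF/LEF was found in 5.47% of members, 4.47% of distal pre-B only and 3.83% of distal shared windows, and GATA in 4.52%, 3.95% and 4.14%, with 3.73% and 3.04% of promoter windows. ETS matches were found in 9.91%, 9.52% and 10.2% of these classes, but in windows of 1000 bp in 30.4% of members and 37.2% of distal pre-B only regions, and E protein matches were found in 20.0%, 17.4% and 19.2%. In promoter windows ETS matches were about as frequent as in members (9.35%), and E protein matches were found in 16.3%. EBF, the motif of a B-lineage factor, was found in 8.27% of members, 10.8% of distal pre-B only and 11.6% of distal shared windows, and in 13.7% of promoter windows. The motifs do not contain one another. At least 2 of the 5 motifs other than EBF occurred in 182 members (7.84%), against 6.09% of distal pre-B only regions. A 13.7-fold member at chr3:97076368-97076938, in an exon of the connexin gene Gja5, held all 5, and no other member held more than 3. It is named here because of its matches, after its values were seen.

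**Figure D5:**
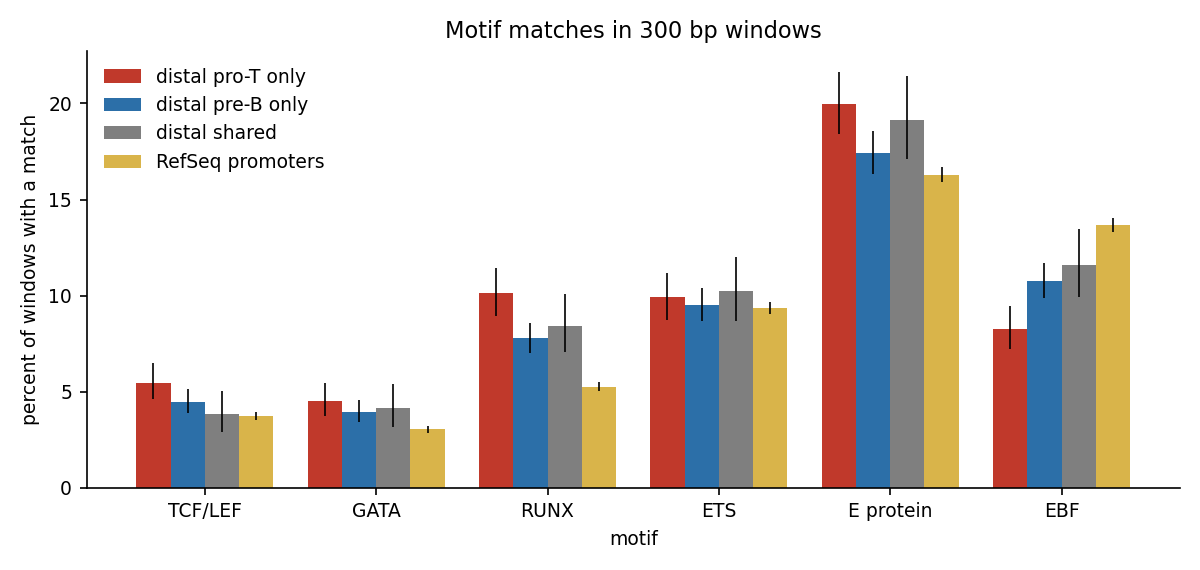
Percent of 300 bp windows with at least 1 match to each motif, for the distal classes and for RefSeq promoter windows, with 95% Wilson intervals as bars. RUNX matches occur in 10.1% of pro-T only windows and 7.77% of pre-B only windows, and EBF matches in 8.27% and 10.8%.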

How the data were processed

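H3K4me3 ChIP-seq of 6 libraries was used as 1 combined peak list per line. The authors trimmed reads with Trim Galore 0.6.7, mapped them to GRCm38 with Bowtie2 2.4.4, called narrow peaks with MACS2 2.2.7.1 against input, and kept peaks reproducible between replicates by IDR. The deposited lists give, per peak, an IDR score, the ratio of signal to local background (fold enrichment) and −log10 p-values and q-values, of which the q-values were not used. They hold no read counts, so depth is unknown. Peaks were merged, compared with GENCODE vM21 TSSs of every gene type and assigned to the nearest protein-coding TSS from the summit, in Python 3.11.15. Tables were handled with pandas 2.3.3 and numpy 2.4.6, rank correlations came from scipy 1.17.1, and plots were drawn with matplotlib 3.10.9. Wilson 95% intervals cover counting error only. Of the T-lineage and B-lineage entries, 229 of 233 and 244 of 253 matched an annotated gene. The steps were tested on simulated intervals. Named genes were those nearest to the 15 members of highest fold, the 10 widest, the 10 groups with most members (ties by bases covered), the 10 genes with most members, listed genes beside a member, and the T-lineage genes with most members. The members and lists were chosen with earlier results of these data known.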

Additional observations from a re-analysis of the deposited data

How the results depend on the processing

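The count of 2322 members ranged from 1915 to 2677 over 8 of 9 alternatives (TSS windows of 1000 or 5000 bp, protein-coding or additional RefSeq TSSs, an IDR score of 1000, lists of equal length, peaks merged up to 1000 bp apart, or the summit as reference). With lists of equal length, the distal pre-B only regions numbered 2194 in place of 4452, against 2623 members. Counts for the pre-B class elsewhere rest on the longer list. With peaks of at least 10-fold in both lists the count of members was 941. Of the members 755 had such a peak, and the other regions entered by construction, as weaker peaks were dropped. The share with a neighbouring member, 28.8%, stayed between 27.2% and 30.3% under 5 alternatives. It was 13.2% with peaks of at least 10-fold, 24.8% with an IDR score of 1000, 12.97% after merging peaks up to 1000 bp apart, 30.9% with protein-coding TSSs alone and 46.0% with a gap of 50 kb. The T-lineage share, 5.73%, stayed between 5.23% and 5.88% under 8 alternatives, and was 3.72% with peaks of at least 10-fold and 7.02% when any T-lineage TSS within 100 kb counted. The same changes gave 1.45% and 3.98% for distal pre-B only regions, against 1.75% in the main analysis. The median width and fold moved to 1106 bp and 13.1 with the 10-fold limit, and motif shares rose in windows of 1000 bp, to 34.5% for RUNX, as longer windows hold more letters. The alternative with RefSeq TSSs was chosen after seeing the data. The causes of the other shifts were not tested. No paired analysis was possible because each line had 1 combined list. The lists give no depth, so whether a missing pre-B peak reflects depth was not tested.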

Other observations

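The antigen receptor loci, looked at after the values were known, held 7 members. In the T cell receptor beta locus there were 2, at chr6:41553508-41554357 (4.47-fold) and chr6:41555335-41555694 (5.55-fold), beside 1 distal pre-B only region. The alpha and delta locus held 3, of which the highest, 19.6-fold over 1778 bp, lay at chr14:53800528-53802305, and 1 distal pre-B only region. The gamma locus held no member, but 4 distal pre-B only regions and 9 promoter regions with pre-B peaks only. Promoter regions with Scid.adh.2C2 peaks only and those with pre-B peaks only numbered 5 and 2 in the beta locus. In the alpha and delta locus they numbered 7 and 5. The immunoglobulin heavy chain locus held 1 member, a 25.7-fold region of 1573 bp at chr12:114378508-114380080. This locus had no distal pre-B only region and 1 promoter region with pre-B peaks only. The kappa locus held 1 member (6.22-fold), 16 distal pre-B only regions and 11 promoter regions with pre-B peaks only. The lambda locus held no peak of either list.

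Members were found on all 21 chromosomes. Apart from chromosome Y, with 2 members, they numbered between 10.1 per 100 Scid.adh.2C2 peaks, on chromosome 7, and 20.1, on chromosome 3. On the X chromosome, the 59 members were 39.3% of its distal regions, beside 51 distal pre-B only regions.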
